A study of Mus musculus with 4 samples.

Results

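The genes described here encode the enzymes that write and erase lysine acetylation, proteins that read it, and cofactors that bring the enzymes to DNA. They were chosen by name, 37 of the 21631 protein-coding genes on the autosomes and X: 10 acetyltransferases, 11 zinc-dependent histone deacetylases (HDACs), 7 NAD-dependent sirtuins, 6 bromodomain genes and 3 cofactors. For each gene, the H3K27ac peaks that overlapped it or the 20000 bp on each side were collected in mouse genome build GRCm38. The peaks came from chromatin immunoprecipitation sequencing of cultured Th17 cells, helper T cells that make interleukin-17. Before the chromatin was taken, naive CD4+ lymphocytes from mice of the strain C57BL/6 had been cultured for 72 h with 0.25 µg/mL anti-CD3ε, 1 µg/mL anti-CD28, 0.1 ng/mL TGF-β and 20 ng/mL IL-6, and 2 H3K27ac libraries and 2 input DNA libraries were made from 2 biological replicates. All libraries share this 1 culture condition, so there is no treated and untreated pair to compare. The names of the peaks carry the letters WT and Ddx5, while the labels give the strain and no genotype.

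Acetyltransferases move an acetyl group from acetyl-CoA to lysines of histone tails, HDACs and sirtuins remove it, and bromodomains bind the acetylated lysine. Acetylation of histone H3 at lysine 27 is written mainly by p300 and its paralog CBP and marks active promoters and enhancers, so the list holds the writers of the very mark that was measured. In T cells, p300 and class IIa HDACs act with transcription factors of the antigen receptor response, and several HDACs and sirtuins are known to affect helper T cell differentiation.

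The deposited list of 56285 peaks gives a position for each peak and no height, fold or value per library. Every length below is therefore the number of bases under peaks, from 1 list, with no replicate error, and sequencing depth is unknown. A peak list from bulk cells also does not tell a mark present in every cell from one present in some of them. The cell type was checked on marker genes. The T cell and Th17 genes Cd3e, Cd4, Il17a, Il17f, Il23r and Ccr6 were each overlapped by a long cluster of peaks, with 15946 to 25062 acetylated bp in their windows. The myeloid gene Itgam and the liver gene Alb had no peak within 1000 bp of either annotated end, and inside the gene they had 1055 and 0 acetylated bp.

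Nearly all of these genes with a listed transcription start were acetylated at the outermost listed one. A transcription start from RefSeq (GRCm38.p6) was listed for 31 members, and all 31 had a peak within 1000 bp of at least 1 start, beside 55.0% of the 17274 protein-coding genes with a listed start. The other 6 members (Kat6a, Hdac1, Hdac3, Hdac10, Brd8 and Ncoa3) had no listed start, and each had a peak at an annotated end of the gene. At the outermost listed start, 30 of the 31 members had a peak. Hdac9 was the exception. The outermost listed start can lie inside the annotated gene, as it did in Hdac4, Brd3 and Sirt4. Hdac4 and Brd3 had no peak within 1000 bp of either annotated end. Where the outermost start was marked, the start base itself lay under a peak in 28 members (93.3%), beside 91.4% of all protein-coding genes so marked. Hdac6 and Hdac11 were the remaining 2. In Hdac6, which encodes a mainly cytoplasmic tubulin deacetylase, the start fell between a 483-bp and a 411-bp peak, 55 bp from the nearer. In Hdac11, the only class IV enzyme, the single peak was 136 bp wide and lay 32 bp from the start. The bases upstream of a marked start were acetylated over a median of 879.5 of 1000 bp in members and 704 of 1000 bp in all marked genes, and the median downstream was 1000 bp in both.

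**Figure D1:**
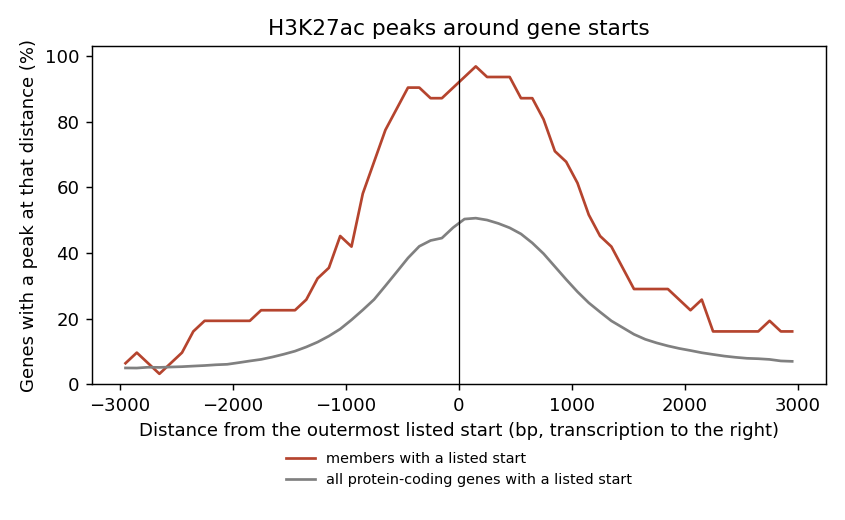
Share of genes with an H3K27ac peak (vertical axis, percent) by distance from the outermost listed start (horizontal axis, bp, transcription to the right), for the 31 members and for all 17274 protein-coding genes with a listed start. The member line is at 90.3% at 450 bp upstream and 96.8% at 150 bp downstream, where the line of all genes is at 38.5% and 50.6%.

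Several starts were listed for 11 members, and in 8 of them every start was marked. In Hdac9, Ncor1 and Kat2b, 27.3% of the 11, some starts were marked and others not, beside 21.7% of the 2761 protein-coding genes with several starts. The 250 bases that precede the marked and unmarked starts of these 3 genes are shown, from RefSeq (GRCm38.p6), because each pair lies in 1 gene and differed in its mark. The nearest peak to the unmarked start was 72553 bp away in Hdac9, 16821 bp away in Ncor1 and 1111 bp away in Kat2b, just outside the 1000 bp used and within the 2500 bp tried as an alternative. All are written in the direction of transcription, with every CG dinucleotide, the target of DNA methylation and the hallmark of CpG islands, in capitals. The Hdac9 pair lies on the minus strand at chr12:34528890-34529139 (marked) and chr12:34917096-34917345 (unmarked). The Ncor1 pair lies on the minus strand at chr11:62457333-62457582 (marked) and chr11:62438516-62438765 (unmarked). The Kat2b pair lies on the plus strand at chr17:53566721-53566970 (marked) and chr17:53583876-53584125 (unmarked).
Hdac9 inner start, marked: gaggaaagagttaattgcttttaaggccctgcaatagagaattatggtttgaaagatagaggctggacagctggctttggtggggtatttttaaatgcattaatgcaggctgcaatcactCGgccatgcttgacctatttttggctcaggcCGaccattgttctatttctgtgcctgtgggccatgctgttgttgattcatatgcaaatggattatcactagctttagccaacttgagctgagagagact
Hdac9 outermost start, unmarked: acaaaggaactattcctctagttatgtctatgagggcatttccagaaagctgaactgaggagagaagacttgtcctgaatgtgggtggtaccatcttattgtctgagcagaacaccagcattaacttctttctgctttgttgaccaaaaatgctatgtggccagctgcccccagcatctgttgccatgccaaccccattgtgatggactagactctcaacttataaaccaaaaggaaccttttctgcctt
Ncor1 outermost start, marked: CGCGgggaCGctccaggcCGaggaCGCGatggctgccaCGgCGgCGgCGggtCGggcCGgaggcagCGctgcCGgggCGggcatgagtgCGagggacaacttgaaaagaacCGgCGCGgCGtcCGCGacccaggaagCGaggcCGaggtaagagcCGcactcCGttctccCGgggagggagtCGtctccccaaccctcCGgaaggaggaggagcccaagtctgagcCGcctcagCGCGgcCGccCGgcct
Ncor1 inner start, unmarked: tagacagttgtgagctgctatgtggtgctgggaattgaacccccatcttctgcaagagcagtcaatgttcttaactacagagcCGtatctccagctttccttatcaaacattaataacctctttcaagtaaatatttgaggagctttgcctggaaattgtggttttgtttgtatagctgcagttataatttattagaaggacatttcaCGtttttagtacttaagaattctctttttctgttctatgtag
Kat2b outermost start, marked: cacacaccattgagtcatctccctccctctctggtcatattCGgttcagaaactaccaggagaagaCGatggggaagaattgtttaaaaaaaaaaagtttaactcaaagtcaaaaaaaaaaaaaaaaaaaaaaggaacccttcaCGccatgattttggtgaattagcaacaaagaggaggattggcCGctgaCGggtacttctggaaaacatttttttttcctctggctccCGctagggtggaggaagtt
Kat2b inner start, unmarked: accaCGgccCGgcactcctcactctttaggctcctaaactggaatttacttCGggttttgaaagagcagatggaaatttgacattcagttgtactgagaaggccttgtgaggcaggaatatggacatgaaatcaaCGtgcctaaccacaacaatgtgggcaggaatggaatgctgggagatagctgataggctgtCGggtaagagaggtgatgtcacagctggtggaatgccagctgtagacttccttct

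The marked Ncor1 start had 34 CG dinucleotides in these bases and the unmarked one 2, the widest contrast of the 3 pairs. In Hdac9 the counts were 2 at the marked and 0 at the unmarked start, and in Kat2b 6 and 5, so neither marked start lay in a CG-rich stretch. Both of these CG-poor marked starts held the AP-1 motif TGANTCA, which 6.17% of all 21045 listed starts held on either strand, 4.01% of the marked and 8.75% of the unmarked ones. Of the 42 marked member starts 3 (7.14%) held it, the other being an inner Kat8 start with 5 CG dinucleotides. The CG-poor marked starts of Hdac7 and Hdac8 did not hold it. AP-1 factors act downstream of the T cell receptor. The unmarked Hdac9 start held TATAAA, as 11.7% of all listed starts did. A match of letters does not show that a factor bound there. Over all member starts, the 42 marked ones had a median of 19 CG dinucleotides (range 2 to 44) and the 3 unmarked ones a median of 2 (range 0 to 5), beside medians of 17 at the 11458 marked and 3 at the 9587 unmarked starts of all genes. Of all starts with 10 or more CG dinucleotides 82.6% were marked, and of those with 2 or fewer 9.76%.

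Other short motifs were searched in the same 250 bases on both strands, with no overlap between any of them required or barred. The GC box GGGCGG, bound by Sp factors, was held by 28 of the 42 marked member starts (66.7%), beside 61.0% of all marked starts and 43.1% of all listed starts. The ETS motif CCGGAAG was held by 8 of the 42 (19.05%), beside 14.9% of all marked and 9.08% of all listed starts. The E box CACGTG was held by 3 (7.14%), beside 8.54% of all marked and 6.70% of all listed starts, and the cyclic AMP response element TGACGTCA by 0, beside 2.78% and 1.94%. TATAAA was held by 1 of the 42 (2.38%), beside 5.77% of all marked and 11.7% of all listed starts. For the GC box, the ETS motif and TATAAA, the shares of marked member starts were nearer to those of all marked starts. For the E box, the cyclic AMP response element and the AP-1 motif given above, they were nearer to those of all listed starts. These member starts were taken for being marked, so a likeness to all marked starts says nothing particular about members.

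Some member starts were shared with a neighbour. In 5 of the 31 members (16.1%), beside 9.73% of the 17274 genes, a start on the opposite strand lay within 1000 bp. Sirt3 and the proteasome gene Psmd13 began 85 bp apart, Brd9 and Trip13 44 bp apart, Sirt2 and Nfkbib, an inhibitor of NF-κB, 108 bp apart, Brd2 and the antigen-processing gene H2-DMa 225 bp apart, and Sirt6 and Ankrd24 974 bp apart. In each of the 5 pairs a single peak covered both starts, so the peak list does not assign it to either gene.

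Over the whole window, all 37 members had at least 1 peak, beside 70.9% of the 21631 protein-coding genes. The acetylated length had a median of 7244 bp in members (range 136 to 40708 bp) and 2399 bp in all protein-coding genes, and 32 of the 37 members were above the median of all genes. Members had a median of 6 peaks and all genes 2. Members were also longer genes, with a median length of 29815 bp against 17329 bp, so each was set beside the 500 protein-coding genes nearest to it in length. The median member then stood at percentile 79.8, where the median of all genes was 47.3. By that measure 10 members stood at or above percentile 90, beside 2179 of the 21631 protein-coding genes. Another 8 members stood under percentile 50, where the median of all genes also lay. The 288 distinct peaks in the member windows had a median width of 759 bp, beside 579 bp for all peaks on these chromosomes.

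A window of this size also takes in peaks of other genes. Acetylated bases outside the gene outnumbered those inside it in 20 of the 37 members, beside 62.2% of the 15332 protein-coding genes with a peak in the window. In 21 members over 50% of the flanking acetylated bases lay on another protein-coding gene, beside 47.8% of those 15332 genes. Inside the gene alone, the median was 2079 bp in members and 704 bp in all protein-coding genes. The comparison of the families changed with this choice. In the window the medians were 12304 bp for HDACs, 8485 bp for sirtuins, 6919 bp for acetyltransferases and 5270.5 bp for bromodomain genes. Inside the gene they were 1321 bp for HDACs, 1455 bp for sirtuins, 2331.5 bp for acetyltransferases and 1918.5 bp for bromodomain genes, so the HDACs had the highest median of these families in the window and the lowest inside the gene. The window lengths of these 4 families overlapped widely, and each median lay within the range of the other 3.

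**Figure D2:**
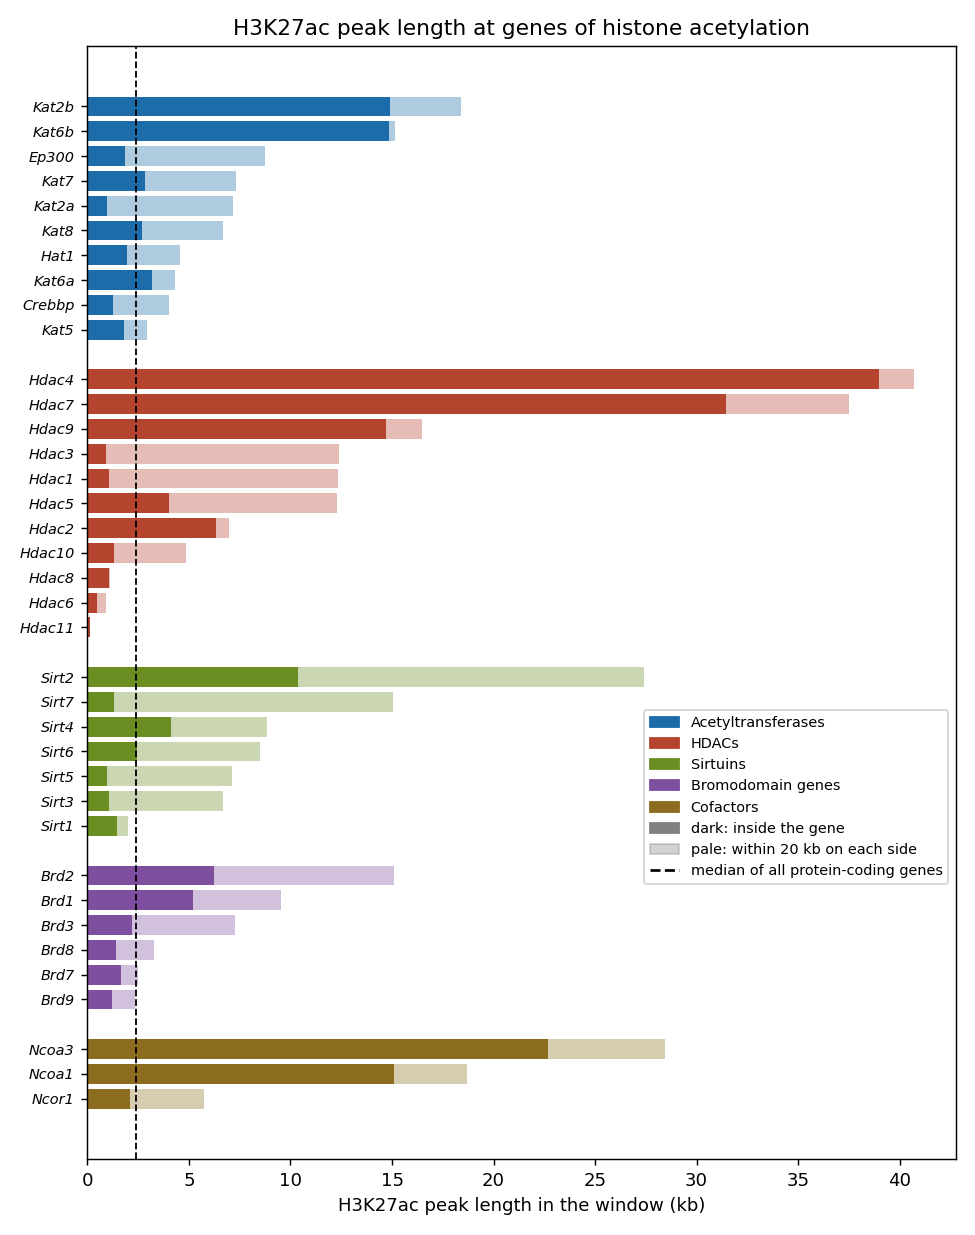
Bases under H3K27ac peaks (horizontal axis, kb) for each of the 37 genes, grouped by family, with the part inside the gene in the dark shade, the part within 20000 bp on each side in the pale shade, and the median of all protein-coding genes (2399 bp) as a dashed line. Hdac4 (40708 bp) and Hdac7 (37512 bp) reach farthest, mostly inside the gene, while most of the length at Hdac1, Hdac3 and Sirt7 is in the flanks.

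Among the acetyltransferases, Ep300 and Crebbp, the genes for p300 and CBP, had little acetylation beyond the promoter. Ep300 (chr15:81586209-81652077) had 8763 bp in 5 peaks, of which 3605 bp were 1 peak over its start and 4411 bp lay on its neighbour L3mbtl2. Only 169 bp inside Ep300 lay away from the start. Here and below, bases away from starts are those of peaks with no base within 1000 bp of a listed start. A peak that came nearer was left out whole, however far it reached. Where no start was listed, both annotated ends were used instead. Crebbp (chr16:4081334-4213957) had 4006 bp in 3 peaks, with a 2037-bp peak over its start and 0 bp elsewhere in its 132624 bp. Against genes of like length Ep300 stood at percentile 80.2 and Crebbp at percentile 49.8.

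The gene pair for GCN5 and PCAF, catalytic subunits of the SAGA and ATAC coactivator complexes, differed more. Kat2b (PCAF, chr17:53566774-53672721) had the longest acetylation of the family, 18401 bp in 15 peaks, with 10503 bp inside the gene away from its starts. Its start peak was 5066 bp wide, and a 3050-bp peak lay 18848 bp downstream of the outermost start. Kat2a (GCN5) had 7182 bp in 7 peaks, of which 946 bp were inside its 7740 bp, and the rest lay partly on Dhx58, Hspb9 and Rab5c. The 2 genes thus had most of their acetylation in different places, Kat2b inside the gene and Kat2a around it.

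The MYST enzymes form complexes that acetylate histones H3 and H4. Kat6b (chr14:21499216-21672478), for MORF, had 15137 bp in 7 peaks, all in 1 cluster at the 5′ side of its 173263 bp, with a 7276-bp peak 20070 bp downstream of the start. Its paralog Kat6a, for MOZ, had 4308 bp in 5 peaks, with no peak wider than the 2034-bp peak at its annotated end. Kat7 (HBO1) had 7341 bp and Kat8 (MOF) 6656 bp. Kat5 (TIP60, chr19:5603014-5611556) had the shortest length of the family, 2930 bp in 2 peaks, with 1814 bp over both of its starts and the other peak mostly on Rnaseh2c. Hat1, which acetylates newly made histone H4, had 4552 bp in 6 peaks. Kat6b and Kat2b were the members of the family with over 5000 bp inside the gene away from starts.

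The HDACs spanned the whole range of the set. The class IIa enzymes shuttle between nucleus and cytoplasm and repress MEF2 target genes. Their genes had the longest acetylation by median, 26994.5 bp over the 4 genes, beside 9665 bp over the 4 class I genes. They were also longer genes, with a median length of 159383 bp against 27068 bp. Peaks covered a median of 14.9% of the window in class IIa and 14.4% in class I. Against genes of like length the median percentiles were 93.7 and 84.6. Hdac4 (chr1:91928779-92195702) had 40708 bp in 42 peaks, the longest of any member when every peak is counted, and 38999 bp were inside the gene. Away from its start it held 39 peaks with 34846 bp, among them a 6339-bp peak near the far end of the gene, 233767 bp downstream of the start, and a 4161-bp peak at 48981 bp. One cluster of 23 of these peaks covered 17058 bp of the middle of the gene. With peaks of at least 500 bp only, Hdac7 was longer, with 36866 bp against 35539 bp in Hdac4. Hdac4 stood at percentile 97.0 of genes of like length.

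Hdac7 (chr15:97792661-97844502), an HDAC highly expressed in thymocytes, had the widest single peak of the set. That peak was 22168 bp wide and covered 3 inner starts, and a separate 4074-bp peak covered the outermost start. In all, Hdac7 had 37512 bp in 14 peaks, and peaks covered 60.7% of the gene, the largest share of any member. It stood at percentile 99.6 of genes of like length. The bases before its outermost start (minus strand, chr15:97844503-97844752) and before the most CG-rich of its inner starts (minus strand, chr15:97831496-97831745) are shown, from RefSeq (GRCm38.p6) with CG in capitals, because both starts were marked while their sequences differ in kind.
Hdac7 outermost start, marked: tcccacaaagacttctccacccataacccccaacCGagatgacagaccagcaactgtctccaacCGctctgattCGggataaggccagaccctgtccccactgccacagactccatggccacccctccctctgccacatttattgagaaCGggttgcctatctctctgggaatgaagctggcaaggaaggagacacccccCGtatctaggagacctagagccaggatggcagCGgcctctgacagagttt
Hdac7 inner start, marked: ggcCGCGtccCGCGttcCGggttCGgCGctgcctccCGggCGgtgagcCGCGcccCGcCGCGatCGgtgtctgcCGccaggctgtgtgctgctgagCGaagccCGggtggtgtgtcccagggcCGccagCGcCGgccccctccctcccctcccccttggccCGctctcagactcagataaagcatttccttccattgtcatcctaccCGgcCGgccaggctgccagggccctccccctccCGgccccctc

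The outermost Hdac7 start had 6 CG dinucleotides in these bases and the inner one 25. The remaining 2 inner starts of Hdac7 had 21 and 5. All 4 starts lay under a peak, so in Hdac7 the mark was found at CG-rich and CG-poor starts alike, unlike in Ncor1.

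Hdac9 (chr12:34047580-34917095) spans 869516 bp, and its acetylation lay away from its outermost start. The nearest peak to that start was 72553 bp away and upstream of the gene. An inner start 388206 bp downstream lay under a 1051-bp peak. Hdac9 had 16477 bp in 19 peaks, including a 3826-bp peak 354056 bp downstream of the outermost start, and 13632 bp were inside the gene away from any start. Peaks covered 1.69% of the gene, and Hdac9 stood at percentile 89.4 of the 500 genes used for like length. Those genes were taken by length rank, so for a gene this long they can differ widely from it in length. Hdac5, the fourth class IIa gene, had 12304 bp in 8 peaks, of which 4020 bp were inside the gene, including a 2002-bp peak 10614 bp downstream of its start.

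Of the class I HDACs, HDAC1, HDAC2 and HDAC3 are catalytic subunits of the nuclear Sin3, NuRD, CoREST and NCoR complexes. Hdac1 (chr4:129516104-129542646) had 12363 bp in 12 peaks, but 1087 bp were inside the gene, all at an annotated end. That end lay in a long cluster of 22862 bp that also covered Lck, the kinase of the T cell receptor, and Fam167b, and 5173 bp of the flank lay on Lck. Hdac3 had a like pattern, with 12380 bp in its window, 917 bp inside the gene and 9316 bp on Diaph1. Hdac2 (chr10:36974297-37001889) was the opposite, with 6344 of its 6967 bp inside the gene. Its widest peak, 4834 bp, lay 9753 bp downstream of the start and was wider than the 1883-bp peak over the start. Hdac8 had a single peak of 1104 bp over its start in 220744 bp of gene.

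The other HDACs had short acetylation. Hdac10, whose enzyme deacetylates polyamines, had 4853 bp in 5 peaks, of which 1321 bp were inside its 5398 bp. Hdac6 (chrX:7930116-7948047) had 894 bp in 2 peaks and stood at percentile 25.3 of genes of like length. Hdac11 (chr6:91156670-91174692) had the least of the 37 members, its single 136-bp peak, and stood at percentile 19.6. A peak of this width is near the narrowest in the list, 100 bp.

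**Figure D3:**
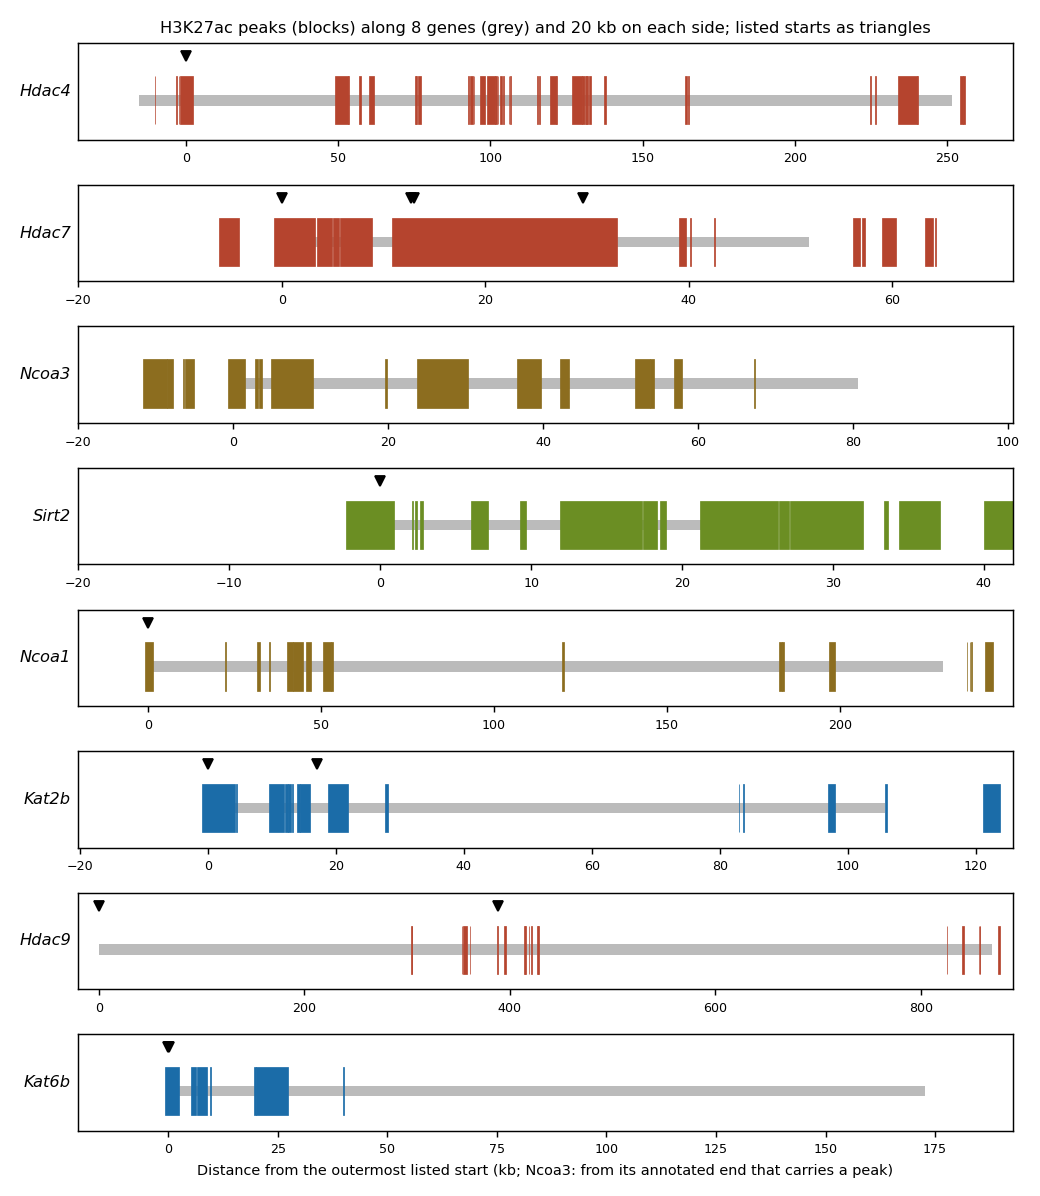
H3K27ac peaks (coloured blocks) along the 8 members with over 5000 acetylated bp inside the gene away from starts, drawn to a separate scale for each gene (horizontal axis, kb from the outermost listed start, or for Ncoa3 from the annotated end that carries a peak), with the gene in grey and listed starts as triangles. Hdac4 has 40 peaks along the gene and 2 in its flank, Hdac7 a single 22168-bp block, Kat6b all of its peaks at its 5′ side, and Hdac9 none at its outermost start.

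The sirtuins Sirt1, Sirt6 and Sirt7 are nuclear, Sirt2 is mainly cytoplasmic, and Sirt3, Sirt4 and Sirt5 are mitochondrial. Sirt2 (chr7:28766752-28788665) had 27394 bp in 15 peaks, of which 10348 bp were inside the gene, and stood at percentile 99.4 of genes of like length. It lay in a cluster of 45397 bp shared with Nfkbib, Rinl, Hnrnpl and Ech1, and Rinl alone held 9660 bp of its flank. The widest peak that overlapped its window, 12621 bp, lay outside the gene and only partly in the window, and only that part was counted. Sirt7 had 15066 bp, but 13772 bp were in the flanks, 8218 bp of them on the transcription factor gene Mafg. Sirt4 had 8868 bp, Sirt6 8485 bp, Sirt5 7144 bp and Sirt3 6685 bp. Sirt1 (chr10:63319005-63339035), the sirtuin gene with the shortest acetylation, had 1 peak of 1995 bp over its start, and no other peak in its window. It stood at percentile 37.6, the only sirtuin gene under percentile 50.

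Among the bromodomain genes, the BET genes Brd2 and Brd3, whose proteins hold transcription complexes on acetylated histones, differed in extent. Brd2 (chr17:34112019-34122814) had 15099 bp in 13 peaks, and 1 peak of 6791 bp covered all 3 of its starts and that of H2-DMa. Peaks covered 57.7% of Brd2, and it stood at percentile 97.2 of genes of like length. Brd3 had 7244 bp in 5 peaks, of which 2194 bp were inside the gene as 1 peak over its start. Brd1, a scaffold of MYST acetyltransferase complexes, had 9541 bp in 3 peaks, with a 4646-bp peak over its start and a 3030-bp peak just downstream. The genes for subunits of SWI/SNF remodelling complexes had little more than a start peak. Brd7 had 2500 bp in 2 peaks, and Brd9 (chr13:73937801-73960895), with the shortest length of the family, had 1 peak of 2345 bp that also covered the start of Trip13. Brd8, for a subunit of the NuA4 acetyltransferase complex, had 3297 bp in 5 peaks. Brd7, Brd8 and Brd9 stood at percentiles 38.2, 48.8 and 46.4.

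The cofactors split the same way. Ncoa3 and Ncoa1, p160 coactivators that bring p300 and CBP to nuclear receptors, had many peaks inside the gene. Ncoa3 (chr2:165992637-166073242) had 28417 bp in 16 peaks, with peaks of 6681 bp and 5417 bp inside the gene and 21127 bp away from its ends, and stood at percentile 97.4. Ncoa1 (chr12:4247362-4477206) had 18668 bp in 17 peaks, with a 2426-bp peak over its start, a 2751-bp peak 42017 bp downstream and 13533 bp inside the gene away from its start. Ncor1 (chr11:62315663-62457414), for the corepressor that activates HDAC3, had the shortest length, 5762 bp in 2 peaks. Its 4357-bp start peak reached Pigl, which begins 1109 bp away on the opposite strand, and 0 bp lay elsewhere in its 141752 bp. In these cofactor genes acetylation away from the start was thus found in the coactivators and not in Ncor1.

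**Figure D4:**
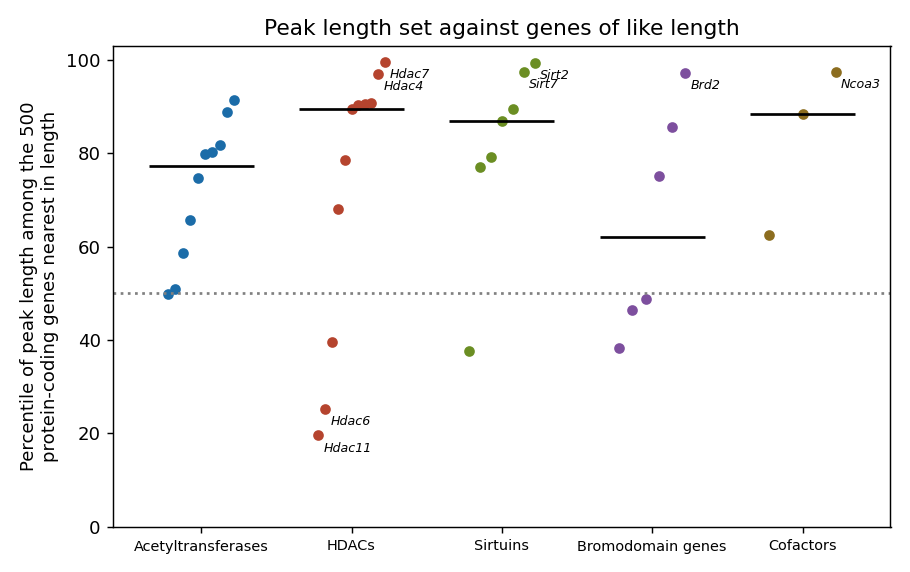
Percentile of each member's acetylated length among the 500 protein-coding genes nearest to it in length (vertical axis), by family, with the family median as a bar and percentile 50 as a dotted line. HDACs range from Hdac11 at 19.6 to Hdac7 at 99.6, and the other families also have members on both sides of the members' median of 79.8.

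Long acetylation inside the gene and away from starts was found in a small group of members. In Hdac7 the 22168-bp peak was left out of this count because it covered inner starts, and 6004 bp remained. The members Hdac4, Ncoa3, Ncoa1, Hdac9, Kat6b, Kat2b, Sirt2 and Hdac7 had over 5000 bp of such acetylation (8 of 37, 21.6%), beside 5.43% of all protein-coding genes. The lists of related genes described below had like shares, 17.9% of acetyltransferase partners, 20.8% of deacetylase partners and 25.9% of other reader genes. These shares were not adjusted for gene length, which had a median of 29815 bp in members and 17329 bp in all protein-coding genes. Such acetylation was 0 bp in 16 members (43.2%), beside 68.1% of all protein-coding genes and 55.0% of those with a peak in the window. Peaks were also joined into 18748 clusters across short gaps, as is usual for finding super-enhancers, and the 826 clusters with over 13241 bp under peaks, the bend of the ranked curve, were called long. Long clusters overlapped 7 members (18.9%), beside 6.37% of all protein-coding genes. At Kat2b, Kat6b, Hdac4 and Hdac7 the cluster covered no other protein-coding gene, with 14272, 15137, 17058 and 34213 bp under peaks. At Hdac1 and Sirt2 it took in the neighbours named above, and at Ncoa3, with 28686 bp, the predicted gene LOC115489489. For Sirt7 and Brd3 a long cluster lay in the window but not on the gene.

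Partners of these enzymes, listed apart from the 37 members, were also marked. Of 28 partners in acetyltransferase complexes, all 24 with a listed start had a start peak, and the median acetylated length was 6804 bp. The longest were Jade2 (20469 bp), a partner of HBO1, Kansl1 (20336 bp), a partner of MOF, and the coactivator gene Ncoa2 (18630 bp). Of 24 partners in deacetylase complexes, all 20 with a listed start had a start peak, and the median was 8873 bp. Gatad2a (23286 bp) and Mbd2 (17734 bp), which encode NuRD subunits, were among the longest. Of 27 other genes for readers of acetyl-lysine, 21 of the 22 with a listed start had a start peak and the median was 7190 bp, with the most at Mllt3 (25529 bp), Zmynd8 (19162 bp) and Bptf (16786 bp). Brdt, the BET gene of the testis, had no peak at its start, and was chosen for mention after its value was seen. Every gene on the 3 lists had at least 1 peak in its window, beside the 70.9% of all protein-coding genes given above.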

How the data were processed

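H3K27ac and input DNA libraries were sequenced from cultured Th17 cells (4 libraries, 2 of them H3K27ac). Per the submitters' processing notes, the tools were MACS2 2.2.6, Bowtie2 2.3.4.1, deepTools and SAMtools 1.9, on GRCm38 (mm10), and per the series' design text each replicate's input served its peak call. The peak threshold, filters and any pooling are unstated in those sources. The authors deposited 1 list of peak positions, with no score or signal. Its running numbers go from 15 to 71449 and 15164 of them are absent, with no reason stated. Starts were taken as counted from 0, and 56284 of 56285 peaks, those on the autosomes and X, were used.

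Genes and starts came from RefSeq tables of GRCm38.p6, with strand from the table of promoters. The plan took strand for every gene, but 6 members without an entry there were described by their annotated ends. No exon annotation was used, so exons and introns were not told apart. Peaks counted with an overlap of at least 1 bp. Acetylated length is the number of bases under peaks, clusters were joined across 12500 bp, and motifs were searched in 250 bases before a start. Python 3.11.15, numpy 2.4.6, pandas 2.3.3 and matplotlib 3.10.9 were used, and the overlap code was tested on simulated data. No statistical test was run, since the list has no value per library. The members and lists were chosen with earlier results of these data known. All members are named, with most detail for the longest and shortest of each family, those with a long cluster and the 3 longest of each partner list, except that some listed genes are not reported here. Other flanks, start windows, peak widths and joining distances were tried as alternatives.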

Additional observations from a re-analysis of the deposited data

How the results depend on the processing

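Peaks were found at most of these genes under each alternative listed here. A start peak was found in 31 members with start windows of 500 and 2500 bp, in 28 at either annotated end, and in 29 with the peak midpoint or with peaks of at least 500 or 1000 bp. A peak in the window was found in 37 members with flanks of 5000 and 50000 bp and with no flank, and in 35 with the wider peaks. Long clusters overlapped 5 members with joining at 5000 bp or peaks of at least 500 bp, and 4 with peaks of at least 1000 bp. Merging peaks at most 1000 bp apart gave a median of 4 peaks per member.

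Acetylated length moved with the flank. With 5000 bp the median was 4081 bp over all members, 4700 bp for HDACs, 3519 bp for sirtuins, 4043.5 bp for acetyltransferases and 2827 bp for bromodomain genes. With 50000 bp it was 13752 bp over all members, 13752 bp for HDACs, 11880 bp for sirtuins, 13063 bp for acetyltransferases and 11819.5 bp for bromodomain genes. With no flank it was 2079 bp over all members, 1321 bp for HDACs, 1455 bp for sirtuins, 2331.5 bp for acetyltransferases and 1918.5 bp for bromodomain genes. With peaks of at least 1000 bp the acetyltransferase median was 3898.5 bp. Single genes moved by over 1.5 times in 15, 18 and 25 of 37 cases with 5000 bp, 50000 bp and no flank. A wider flank adds bases of neighbours by construction. Sirt2 had the longest acetylation with a flank of 50000 bp (47981 bp), Hdac7 with peaks of at least 500 bp (36866 bp) or 1000 bp (34147 bp), and Hdac4 with a flank of 5000 bp or none. No paired analysis was possible because the one list carries no value per library, and no replicate could be left out. Depth is unknown, so a short or missing peak was not told apart from one under the limit of detection.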
